A study of Mus musculus with 30 samples.

Results

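MHC class I molecules carry short peptides from inside a cell to its surface, where CD8+ T cells and NK cells read them. Of that system, 9 genes were followed in whole B16 tumors: B2m, the heavy chain genes H2-K1, H2-D1, H2-Q4, H2-Q7, H2-T22, H2-T23 and H2-M3, and Nlrc5, a transactivator of class I genes. They were chosen by name, and all 9 of them had a row among the 39676 gene identifiers with counts. The measurements were bulk RNA-seq counts of 30 whole tumors taken 8 days after inoculation. The GFP tumors or controls, 10 in number, came from the line B16.GFP.gB.luc, another set of 10 from B16.IFNα4.gB.luc (IFNα4 tumors) and the last 10 from B16.IFNα9.gB.luc (IFNα9 tumors). The question was how transcription differs between tumors that secrete one or the other type I interferon (IFN-I) and tumors that carry the vector alone.

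B16-F10 is a melanoma line from C57BL/6 mice. It was transduced with retrovirus in which the promoter of the murine stem cell virus drove Ifna4 or Ifna9 together with enhanced GFP, or GFP without interferon. Every line, the control included, also carried membrane-bound glycoprotein B of herpes simplex virus with cyan fluorescent protein, and luciferase with puromycin resistance. Recipients were C57BL/6 mice, for which the study's methods name females used as young adults. The hosts kept their immune system, so that a tumor sample could hold melanoma cells, infiltrating leukocytes and neighboring tissue. The labels number the tumors of a type as biological replicates. Total counts per tumor ran from 14598517 to 19788383. Counts of Ifna4 were 81 to 188 in the IFNα4 tumors and 0 in the other 20, and counts of Ifna9 were 55 to 148 in the IFNα9 tumors and 0 in the other 20. GFP tumor 7 stood apart from the rest of its type, with a TMM factor of 0.768, and the relations with the leukocyte score are also given without it.

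A class I molecule consists of a heavy chain, the invariant light chain β2-microglobulin encoded by B2m, and a peptide. H2-K1 and H2-D1 encode the classical heavy chains that present peptides to CD8+ T cells. The H2-Q, H2-T and H2-M genes encode nonclassical chains: H2-T23 gives Qa-1, the ligand of the CD94/NKG2A receptor on NK cells, H2-Q7 gives Qa-2, and H2-M3 presents N-formylated peptides. Class I promoters carry an upstream module with an NF-κB site (enhancer A), an interferon-stimulated response element (ISRE) that binds IRF and ISGF3 complexes, and an SXY module on which RFX, CREB/ATF and NF-Y proteins assemble and to which NLRC5 is recruited. B16 cells are known for low surface MHC class I that interferon can raise.

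The ISRE is printed first, because it is the element of class I promoters that is named for its response to interferon. Promoters of 300 bases, from 250 bases before to 50 after the RefSeq start (GRCm38.p6), were listed for 8 of the 9 genes. They were searched on both strands for TTTCNNTTTC and for the form one base shorter, TTTCNNTTC. Each of the 8 promoters held one or the other form. The windows below begin 20 bases before the match, which stands in capitals, and run 5′ to 3′ on the strand of the gene. In B2m the match is on the opposite strand.
B2m (chr2:122147528-122147557, plus strand): acgggactttataagaacatGAAACTGAAA
H2-K1 (chr17:34000429-34000457, minus strand): gggattccccatctccacagTTTCACTTC
H2-D1 (chr17:35262924-35262952, plus strand): gggattccccatctcctcagTTTCACTTC
H2-Q4 (chr17:35379444-35379472, plus strand): gggatttcccatctccccagTTTCACTTC
H2-Q7 (chr17:35439022-35439050, plus strand): ggggattcccatctccccagTTTCACTTC
H2-T22 (chr17:36042924-36042953, minus strand): agagtccctaattggcttagTTTCACTTTC
H2-T23 (chr17:36032816-36032845, minus strand): atgaaaagggatcctactgcTTTCTCTTTC
H2-M3 (chr17:37270113-37270141, plus strand): ttcccccatttcctctgaggTTTCACTTC

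The longer form was found in B2m, H2-T22 and H2-T23 and the shorter in H2-K1, H2-D1, H2-Q4, H2-Q7 and H2-M3. Among 32851 promoters of the same length, 3.443% held the longer form, 7.516% the shorter and 10.36% either. The palindromic κB sequence GGGATTCCC stood just upstream of the ISRE form in H2-K1, H2-D1 and H2-Q7, and was present in 0.3531% of all promoters. TGACG, the core bound by CREB/ATF proteins, was found in all of the 8 but H2-T23, against 20.81% of all promoters. ATTGG, the inverted CCAAT bound by NF-Y, was found in all 8, against 37.41%. The windows of H2-D1 and H2-T23 lie inside the gene as GENCODE annotates it, since the RefSeq start is further downstream. Nlrc5, on chromosome 8 (94434356 to 94527272), had no entry in the promoter table. A match is a match of letters and not a measured binding site.

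Sequence shared between H2 genes bears on every count that follows. The heavy chain genes lie on chromosome 17 between H2-K1 (33996017 to 34000347) and H2-M3 (37270220 to 37274484) in GRCm38, and B2m is on chromosome 2 (122147686 to 122153083). Reads were 50 bases long, so each transcript was divided into all its stretches of 50 bases and each stretch was looked up in the transcripts of the other genes. B2m and Nlrc5 shared none. H2-M3 shared 0.576% of its stretches and H2-K1 6.87%, most of them with H2-D1. The share was 13.9% for H2-D1, 24.3% for H2-Q4, 28.8% for H2-T23 and 34.9% for H2-Q7. It was highest, 43.9%, for H2-T22, of which 37.5% was shared with H2-T10. An example is this stretch in exon 4 of H2-K1, which encodes the conserved membrane-proximal part of the heavy chain and is found in 15 genes with a row, 5 of them among the genes followed here (H2-D1, H2-K1, H2-Q7, H2-T22 and H2-T23).
H2-K1 exon 4 (chr17:33997374-33997423, minus strand): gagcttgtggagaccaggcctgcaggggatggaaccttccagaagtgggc
How reads that fit several genes were counted is not stated, so the values of H2-Q4, H2-Q7, H2-T22 and H2-T23 in particular cannot be assigned to one gene with certainty. B2m, Nlrc5 and H2-M3 are nearly free of this limit, and a sum over H2 genes is given below.

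All 9 genes rose in the IFNα4 and in the IFNα9 tumors relative to controls, and for each of them the lowest IFN-I–secreting tumor lay above the highest control. Among the interferon types, 6 of the 7 heavy chains were lower in IFNα9 tumors than in IFNα4 tumors, whereas B2m and Nlrc5 did not pass the test. Levels below are CPM, the counts of a gene relative to the TMM-scaled size of its library, as lowest, median and highest of 10 tumors. Fold changes are log2 values from edgeR's quasi-likelihood fit of all 30 tumors with their standard errors (SE), and p-values are adjusted by the Benjamini-Hochberg procedure over 15926 genes. DEGs are genes with an adjusted p under 0.05.

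**Figure D1:**
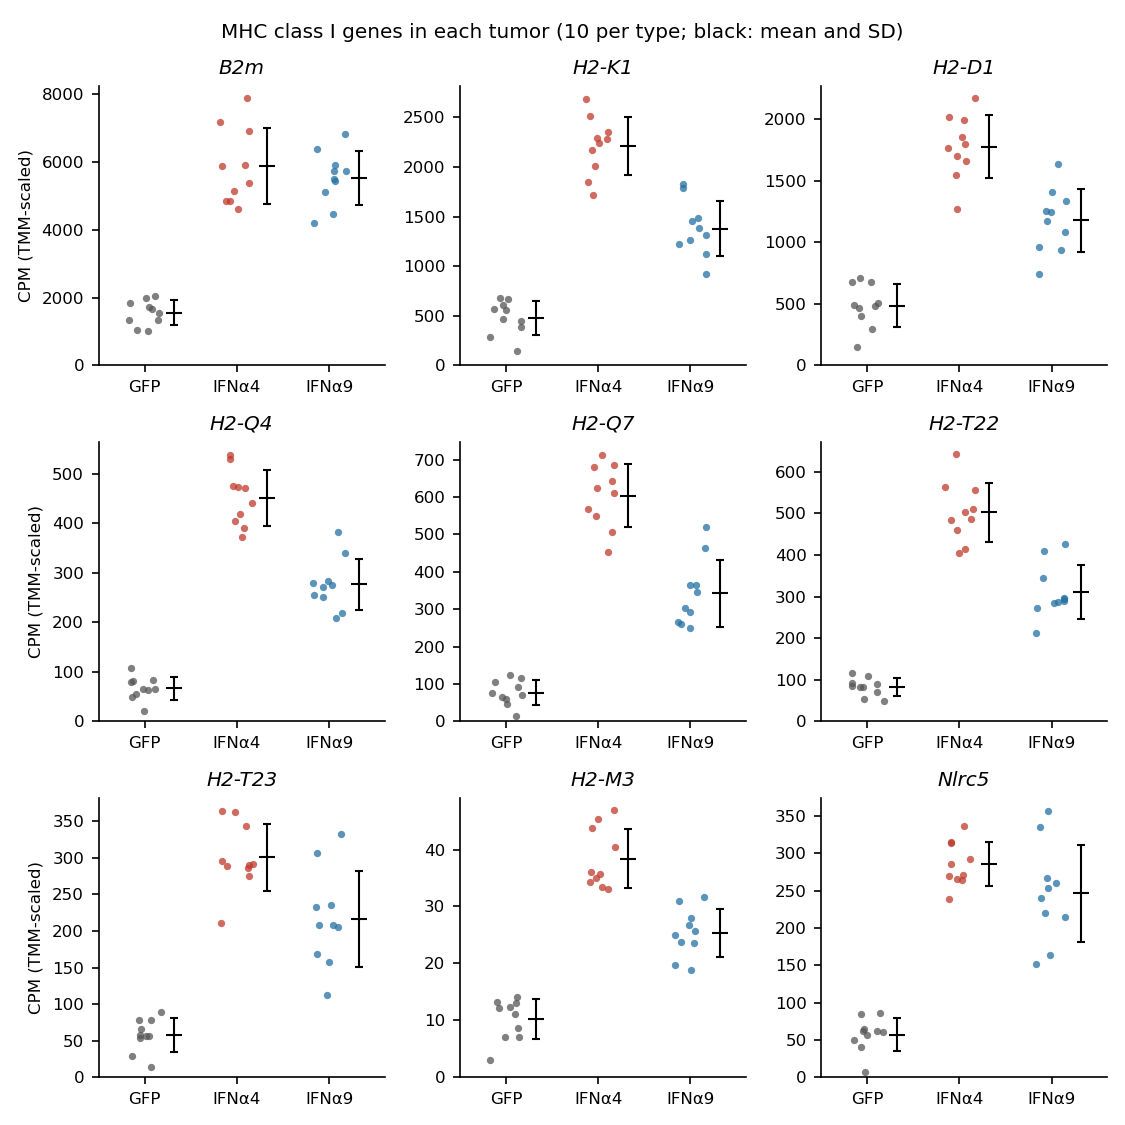
Levels of the 9 genes in each tumor. The y axis gives TMM-scaled CPM on a linear axis from 0 and the x axis the tumor type; each point is 1 tumor of 10 per type, and black bars give mean and SD. In every panel the GFP points lie below all points of both interferon types. The IFNα9 points of the heavy chains lie for the most part lower than the IFNα4 points, with H2-M3 showing no overlap between them.

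B2m, the light chain, was the most abundant of the 9. Its level was 1020 to 2052 CPM with a median of 1606 in GFP tumors, 4610 to 7898 with a median of 5644 in IFNα4 tumors, and 4204 to 6828 with a median of 5619 in IFNα9 tumors. The controls did not overlap with either interferon type, and the interferon types overlapped with each other over most of their range. The log2 fold change against controls was 1.92 (SE 0.13, adjusted p 3.24e-13) for IFNα4 tumors and 1.83 (SE 0.13, adjusted p 1.93e-12) for IFNα9 tumors. The difference between the interferon types was -0.08 (SE 0.13, adjusted p 0.706), and an interval of 2 SE around it ran from -0.34 to 0.17.

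H2-K1 encodes the classical heavy chain H-2K. In controls it measured 141 to 679 CPM with a median of 510. IFNα4 tumors held 1719 to 2689 CPM with a median of 2260, and IFNα9 tumors 923 to 1831 with a median of 1352. Of the IFNα9 tumors, 8 lay below the lowest IFNα4 tumor. H2-K1 rose by 2.20 (SE 0.19, adjusted p 2.33e-11) with IFNα4 and by 1.52 (SE 0.18, adjusted p 6e-08) with IFNα9, and the difference between the interferon types was -0.68 (SE 0.18, adjusted p 0.0076).

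H2-D1, the other classical heavy chain gene, was close to H2-K1 in level. The controls ran from 146 to 707 CPM around a median of 486, the IFNα4 tumors from 1272 to 2171 around 1781, and the IFNα9 tumors from 746 to 1638 around 1210. The lowest IFNα9 tumor was thus just above the highest control. H2-D1 had the smallest fold changes of the 9 genes, 1.88 (SE 0.19, adjusted p 7.24e-10) with IFNα4 and 1.28 (SE 0.18, adjusted p 1.27e-06) with IFNα9. Between the interferon types it fell by 0.59 on the log2 scale (SE 0.18, adjusted p 0.0211).

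With IFNα4 the H2-Q genes showed the largest fold changes of the 9. H2-Q7 rose from 14.9 to 125 CPM in controls, with a median of 72.9, to 452 to 712 with a median of 618 in IFNα4 tumors, a log2 fold change of 2.97 (SE 0.23, adjusted p 3.2e-12). In IFNα9 tumors it measured 250 to 519 CPM with a median of 325, a log2 fold change of 2.15 (SE 0.22, adjusted p 3.19e-09). Its difference between the interferon types, -0.82 (SE 0.21, adjusted p 0.00735), was the largest among the 9 genes.

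H2-Q4 encodes Qb-1 and followed the same order of types. Its controls held 20.9 to 107 CPM with a median of 66.0, the IFNα4 tumors 373 to 538 with a median of 456, and the IFNα9 tumors 209 to 383 with a median of 273. One IFNα9 tumor reached into the IFNα4 range and the other 9 lay below it. The log2 fold changes were 2.75 (SE 0.17, adjusted p 4.14e-14) and 2.04 (SE 0.17, adjusted p 3.59e-11) against the controls, and -0.71 (SE 0.16, adjusted p 0.00283) between the interferon types.

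H2-T22 encodes a nonclassical chain that γδ T cells can recognize. It measured 49.3 to 116 CPM with a median of 84.2 in controls, 405 to 641 with a median of 495 with IFNα4, and 212 to 426 with a median of 291 with IFNα9. Its fold changes were 2.60 (SE 0.14, adjusted p 1.03e-15) and 1.91 (SE 0.14, adjusted p 1.32e-12), and the difference between the interferon types was -0.69 (SE 0.13, adjusted p 0.000388). Because 43.9% of its stretches are shared, reads of H2-T10 can be part of these values. H2-T10 itself had log2 fold changes of 2.71 with IFNα4 and 1.95 with IFNα9.

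H2-T23, the gene of Qa-1, was at 14.4 to 89.4 CPM with a median of 57.0 in controls. It rose by 2.37 (SE 0.22, adjusted p 1.41e-10) to 211 to 364 CPM, median 291, with IFNα4, and by 1.90 (SE 0.21, adjusted p 2.13e-08) to 112 to 333 CPM, median 208, with IFNα9. It was the heavy chain whose interferon types did not separate: the difference was -0.47 (SE 0.21, adjusted p 0.114), with 6 of 10 IFNα9 tumors below the lowest of the other type. Without GFP tumor 7 the same difference was -0.49 with an adjusted p of 0.0241, and in a fit of the 20 tumors compared it was -0.48 with an adjusted p of 0.0153.

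H2-M3 was the least abundant heavy chain. Controls held 3.13 to 14.1 CPM, median 11.7, which was 35 to 249 reads. IFNα4 tumors held 33.1 to 46.9 CPM, median 36.0, and IFNα9 tumors 18.8 to 31.7 CPM, median 25.3, so that the 3 types formed 3 ranges without overlap. The log2 fold changes were 1.90 (SE 0.17, adjusted p 6.06e-11), 1.31 (SE 0.17, adjusted p 1.78e-07) and, between the interferon types, -0.60 (SE 0.16, adjusted p 0.0097).

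Nlrc5, which encodes the class I transactivator, measured 6.79 to 85.7 CPM with a median of 61.0 in controls, and the lowest value was that of tumor 7. It rose by 2.31 (SE 0.23, adjusted p 9.53e-10) to 238 to 337 CPM, median 279, with IFNα4 and by 2.10 (SE 0.23, adjusted p 1.27e-08) to 152 to 357 CPM, median 247, with IFNα9. The range of the IFNα9 tumors enclosed that of the other interferon type. The difference was -0.21 (SE 0.22, adjusted p 0.563), with an interval of 2 SE from -0.66 to 0.23.

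Counted over the 9 genes, all 9 were DEGs that rose with IFNα4, against 31.3% of all genes tested. All 9 also showed no overlap between tumors, against 8.5%. Their median log2 fold change was 2.31, beside a median of 0.01 over all genes. With IFNα9 all 9 were again DEGs that rose, against a background of 26.9%, and all 9 without overlap, against 4.44%, with a median of 1.90 beside -0.0031 over all genes. Both comparisons share their 10 control tumors. Between the interferon types 6 of 9 were DEGs that fell, against 7.25% of all genes, and 1, H2-M3, was without overlap, against 0.741%. All 9 estimates were negative, with a median of -0.60 beside -0.0055 over all genes. Without control tumor 7 the counts of DEGs were 9, 9 and 7, H2-T23 being the addition.

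**Figure D2:**
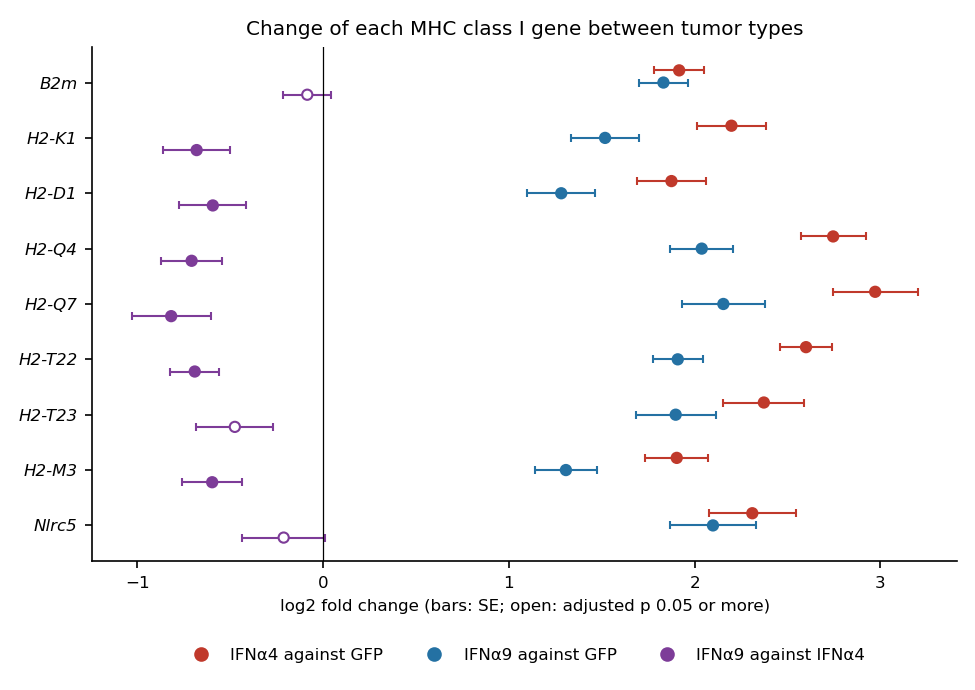
Log2 fold changes of the 9 genes in the 3 comparisons. The x axis gives the log2 fold change from the fit of all 30 tumors, bars are 1 SE, filled points have an adjusted p under 0.05 and open points do not. Both comparisons with GFP lie between 1.28 and 2.97, and the comparison of IFNα9 with IFNα4 lies between -0.82 and -0.08, with open points for B2m, H2-T23 and Nlrc5.

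Levels of different genes can be set side by side once divided by transcript length. As CPM per kilobase of the longest coding transcript, B2m led in each type, with a mean of 1808 ± 426 (SD, n = 10) in GFP tumors, 6825 ± 1305 in IFNα4 tumors and 6436 ± 926 in IFNα9 tumors. H2-K1 followed, with 298 ± 106, 1366 ± 180 and 852 ± 173 CPM per kilobase. H2-D1 came next, with 231 ± 84.0, 847 ± 123 and 561 ± 123 CPM per kilobase. In controls its distance from H2-K1 was within their SD, and per kilobase H2-K1 was the higher in 10 of 10 tumors. That order in controls rests on the transcript lengths used, 1619 bases for H2-K1 and 2102 for H2-D1. Before division by length the control means were 482 CPM for H2-K1 and 485 for H2-D1. The next 4 places were taken by H2-Q7, H2-T22, H2-T23 and H2-Q4, which in controls lay between 37.5 and 50.5 CPM per kilobase, each gap being smaller than the SD. In IFNα4 tumors H2-Q7 stood above the other 3 by more than the SD, at 396 ± 54.8 CPM per kilobase. Nlrc5 and H2-M3 were last, at 7.58 and 7.11 CPM per kilobase in controls without a difference beyond their spread, and at 37.6 and 26.7 with IFNα4 and 32.5 and 17.7 with IFNα9, where Nlrc5 was the higher in 10 of 10 tumors of each type.

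The heavy chains and the light chain did not move by equal amounts. Each gene was set against B2m in the same tumor, as the difference of log2 CPM (prior count 2), and compared between types by two-sided permutation tests with 100000 resamples, 24 tests in all with Benjamini-Hochberg adjustment over them. In IFNα9 tumors 6 of the 7 heavy chains were lower relative to B2m than in IFNα4 tumors. The drop was largest for H2-Q7, from -3.27 ± 0.33 to -4.04 ± 0.30 (SD, n = 10 each), a difference of -0.77 (permutation test, adjusted p 0.00048), with 9 of 10 tumors below all of the other type. H2-Q4 differed by -0.64 (adjusted p 0.00048), H2-T22 by -0.63 (adjusted p 0.0008), H2-K1 by -0.62 (adjusted p 0.00204), H2-D1 by -0.54 (adjusted p 0.0135) and H2-M3 by -0.53 (adjusted p 0.00171). H2-T23 differed by -0.44 (adjusted p 0.0569) and Nlrc5 by -0.18 (adjusted p 0.229), and neither passed.

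With IFNα4, 4 nonclassical chains rose more than B2m did. H2-Q7 was higher relative to B2m by 1.21 and H2-Q4 by 0.91, both in 10 of 10 tumors above all controls and both with an adjusted permutation p of 0.00024 from the smallest p the resampling can give. H2-T22 was higher by 0.70 (adjusted p 0.00048) and H2-T23 by 0.57 (adjusted p 0.0426), the latter 0.43 with an adjusted p of 0.0749 without control tumor 7. H2-K1 differed by 0.37 (adjusted p 0.08), H2-D1 by 0.05 (adjusted p 0.817), H2-M3 by 0.06 (adjusted p 0.755) and Nlrc5 by 0.59 (adjusted p 0.0628), and these did not pass. With IFNα9 the ratio to B2m was below the controls for H2-D1, by -0.49 (adjusted p 0.0426), and H2-M3, by -0.46 (adjusted p 0.021), and the other 6 did not pass, with differences from -0.24 for H2-K1 to 0.44 for H2-Q7. Without control tumor 7, H2-K1 passed as well, at -0.37 (adjusted p 0.0354).

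**Figure D3:**
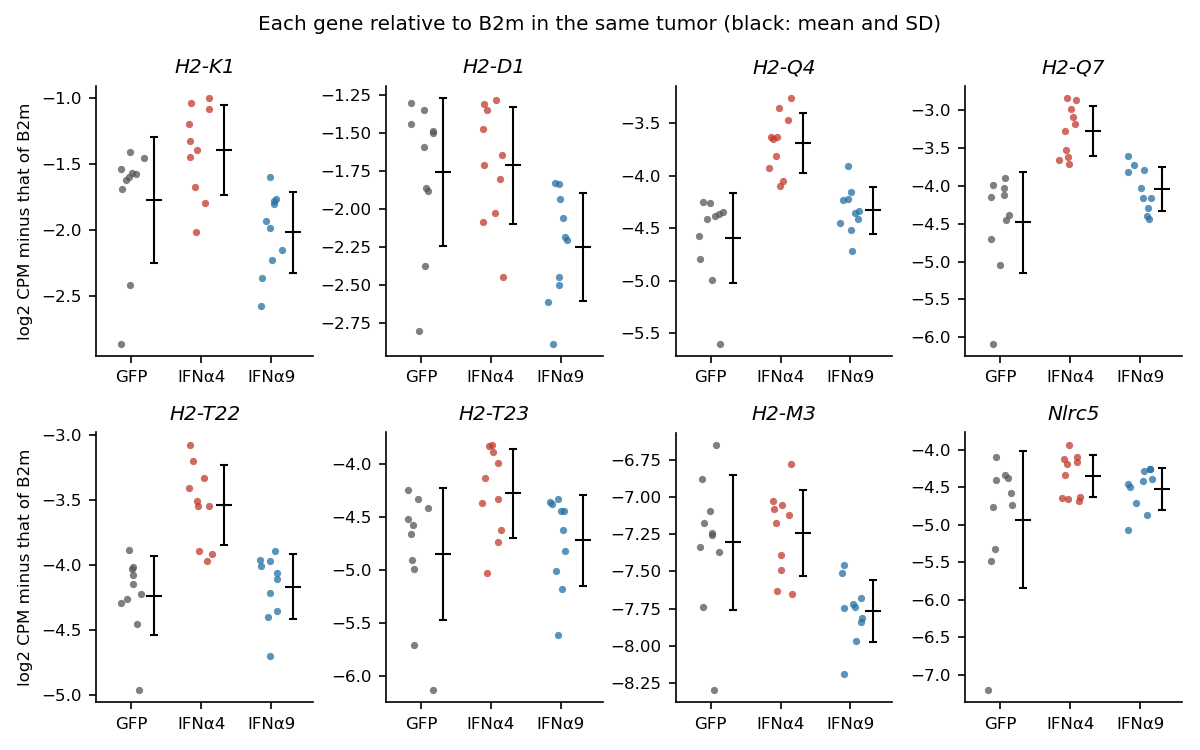
Each gene relative to B2m. The y axis is the log2 CPM of the gene minus that of B2m in the same tumor, on a separate scale per panel, and the x axis the tumor type; points are tumors, black bars mean and SD over 10. H2-Q4 and H2-Q7 are higher in the IFNα4 tumors than in all GFP tumors, and the IFNα9 points lie below most IFNα4 points for the heavy chains but not for Nlrc5; the lowest GFP point of most panels is tumor 7.

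To take the heavy chains together irrespective of how shared reads were divided among them, the counts of 25 H2 class I genes were summed in each tumor. Shared reads that the counting may have dropped are missing from this sum as well. The summed level was 457 to 2093 CPM with a median of 1501 in controls, 5811 to 8648 with a median of 7209 with IFNα4, and 3024 to 6160 with a median of 4335 with IFNα9. It rose by 2.31 (SE 0.18, adjusted p 5.56e-12) and by 1.62 (SE 0.18, adjusted p 1.13e-08) against the controls, and differed by -0.68 (SE 0.17, adjusted p 0.00606) between the interferon types. With the further genes of the H2 region that share a stretch, 41 rows in all, the values were 2.31, 1.62 and -0.68.

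The make-up of the sum also shifted. H2-K1 and H2-D1 together took 62.7 to 70.2% of the summed counts in GFP tumors, with a mean of 66.3% ± 2.27 (SD, n = 10). Their share was 55.5% ± 2.02 in IFNα4 tumors, a difference of -10.8 percentage points, and 57.2% ± 2.05 in IFNα9 tumors, a difference of -9.04 points. Each interferon tumor lay below each control, and both differences had an adjusted permutation p of 3e-05 over 3 tests, from the smallest p that the resampling can give. The interferon types differed by 1.75 points (permutation test, adjusted p 0.0687). This share was chosen after the levels had been seen, and it depends on how shared reads were assigned.

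**Figure D4:**
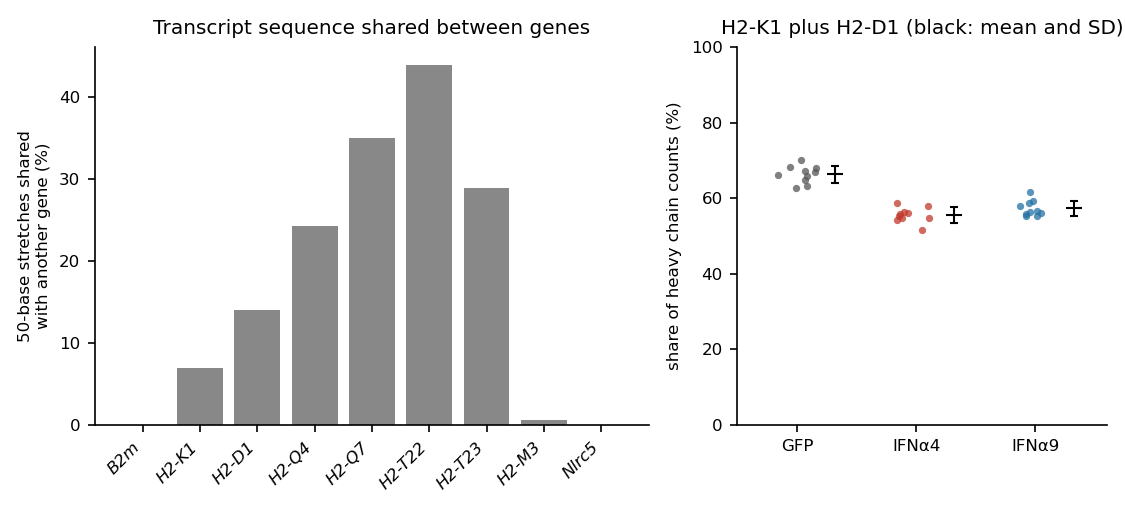
Left, the percent of 50-base stretches of each gene's transcripts that occur in another gene, as bars from 0; right, the percent of the summed counts of 25 H2 class I genes that fell on H2-K1 and H2-D1, with 1 point per tumor and black bars for mean and SD over 10. Sharing runs from 0 for B2m and Nlrc5 to 43.9% for H2-T22, and the GFP tumors lie above all interferon tumors in the share of H2-K1 and H2-D1.

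Further genes of the class I family and of the class I-like folds moved in the same direction for the most part. Of 21 tested, 15 rose and 3 fell with IFNα4, 17 rose and 3 fell with IFNα9, and between the interferon types 7 were lower and 3 higher with IFNα9. Of all genes tested, 34.1% fell with IFNα4, 28.9% fell with IFNα9 and 10.5% were higher with IFNα9 than with IFNα4, and the counts of the lists are to be read beside these shares and those of the genes that rose. The median log2 fold changes were 1.26, 1.07 and -0.28. H2-Q6 had the largest rise with IFNα4, 3.17, and 2.19 with IFNα9, and it shares 13.9% of its stretches with H2-Q7. The largest fall with IFNα4 was that of Azgp1, which encodes zinc-α2-glycoprotein, a soluble class I-like protein, at -3.91 with IFNα4 and -2.001 with IFNα9. H2-Q8, H2-Q9, H2-T9 and H2-T26 were not analysed here.

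Of 13 tested genes that supply and load peptides, 9 rose and 4 fell with IFNα4, and 9 rose and 3 fell with IFNα9. Tap1, a subunit of the transporter that moves peptides into the endoplasmic reticulum, rose by 2.22 with IFNα4 and by 2.10 with IFNα9, and Canx, which encodes the chaperone calnexin, fell by 0.77 and 0.38. Between the interferon types 1 of 13 passed, Canx, which was higher with IFNα9 by 0.40, and the median was 0.05. The difference in Tap1 was -0.12 (edgeR's test, adjusted p 0.68), an estimate near those of B2m and Nlrc5. The estimates of the heavy chains were lower, from -0.82 for H2-Q7 to -0.47 for H2-T23, which did not pass. Tap1 was not tested against the heavy chains.

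Among 17 regulators of class I transcription, 8 rose and 4 fell in both comparisons with the controls. The share called in either direction, 12 of 17, was near that of all genes, of which 65.4% were called with IFNα4 and 55.7% with IFNα9. Irf1, an interferon-induced factor that binds the ISRE, rose by 1.67 with IFNα4 and by 2.52 with IFNα9, and was higher with IFNα9 than with IFNα4 by 0.85 (adjusted p 0.0079). Rfx5, which encodes the large subunit of the RFX complex of the SXY module, rose by 0.70 and 0.97 and was likewise higher with IFNα9, by 0.27 (adjusted p 0.0395). Ezh2, the methyltransferase of the repressive histone mark H3K27me3, fell by 0.81 with IFNα4. With IFNα9 its change of -0.25 did not pass (adjusted p 0.0524), and it was higher than with IFNα4 by 0.56. Of the 17, 3 were higher with IFNα9 than with IFNα4 and 14 did not pass edgeR's test. At an unadjusted p under 0.05, 4 were higher and 2 lower with IFNα9, and DESeq2 called 3 higher and 1 lower. Ciita and Ifng were not analysed here.

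The receptors that read class I rose throughout. All 14 tested, among them the CD8 chains and the Ly49 and NKG2 receptors of NK cells, were DEGs that rose with each interferon, with medians of 3.67 with IFNα4 and 3.05 with IFNα9. Klra4, which encodes the activating receptor Ly49D, had the largest rise, 5.24 with IFNα4 and 3.99 with IFNα9. Of the 14, 8 were lower with IFNα9 than with IFNα4 and 6 did not pass. The Ly49 genes are close paralogs, so that their counts are uncertain in the way of the H2 genes.

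These are whole tumors, and a gene's level there is set by the cells present as well as by transcription in each of them: fewer cells of a type and less RNA per cell cannot be told apart. Markers of leukocytes, NK cells, T cells and macrophages rose for the most part together with the class I genes, whereas melanocyte markers fell. Of 8 leukocyte markers, 7 rose and 1 fell with IFNα4 and 7 rose with IFNα9, and their summed level was 701 to 1247 CPM in controls, 1501 to 3053 with IFNα4 and 1163 to 2159 with IFNα9. Ptprc (CD45) rose by 2.65 with IFNα4 and by 2.14 with IFNα9, and Arhgdib fell by 0.46 with IFNα4. NK cell markers rose in 6 of 6, from 6.16 to 32.9 summed CPM in controls to 115 to 322 with IFNα4 and 74.2 to 225 with IFNα9, with Ncr1 at 4.66 and 4.14. T cell markers rose in 8 of 8 with IFNα4 and 7 of 8 with IFNα9, from 6.88 to 61.4 summed CPM to 77.5 to 158 and 31.2 to 119, with Cd8a at 3.36 and 2.99. Between the interferon types 3 of the 6 NK cell markers were lower with IFNα9, 1 of 8 leukocyte markers was lower and 1 higher, and the 8 T cell markers did not pass edgeR's test, with estimates from -0.82 to -0.13. At an unadjusted p under 0.05, 2 of the 8 were lower with IFNα9, and DESeq2 called 2. The part of these cells in the class I values was not tested.

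Macrophage and monocyte markers rose in 4 of 5 with each interferon, from 121 to 588 summed CPM to 486 to 939 and 422 to 692, with Fcgr1, itself interferon-inducible, at 2.55 and 1.702, and 2 of the 5 were lower with IFNα9 than with IFNα4. Dendritic cell markers rose in 3 of 6 and 5 of 6, from 13.4 to 52.2 summed CPM to 35.8 to 54.7 and 46.1 to 68.4, with Xcr1 at 1.39 and 2.08. Of 5 B cell markers 2 were tested and were near the detection limit, at 0.214 to 2.21 summed CPM in controls, 2.56 to 7.82 with IFNα4 and 1.49 to 2.83 with IFNα9, and Pax5 rose by 3.95 with IFNα4. Melanocyte markers fell in 4 of 4 with each interferon, from 7608 to 24790 summed CPM to 2280 to 3783 and 3505 to 9256, with Slc45a2 at -2.37 and -1.66, and 3 of the 4 were higher with IFNα9 than with IFNα4. Of 4 fibroblast markers, Pdgfrb passed with IFNα4, at 0.41, and Pdgfra with IFNα9, at 0.54, a share near that of all genes that rose. Pdgfrb was lower with IFNα9 than with IFNα4 by a difference of -0.57, and the collagen genes Col1a1 and Col3a1 did not pass in the 3 comparisons. The 4 markers stood at 2152 to 9575, 4560 to 8216 and 4970 to 8132 summed CPM. Endothelial markers fell in 3 of 5 with each interferon and Kdr rose by 1.35 with IFNα4, while Emcn fell by 1.32, at 162 to 409, 231 to 334 and 121 to 210 summed CPM. Between the interferon types 3 of the 5 were lower with IFNα9, with Kdr at -1.35. Skeletal muscle and keratinocyte markers reached 15053 and 9304 summed CPM in single tumors, and the tissue their RNA came from was not tested. The 5 muscle markers did not pass edgeR's test with IFNα4, nor at an unadjusted p under 0.05 or by DESeq2, and 3 of 5 fell with IFNα9. Of the 5, 4 were lower with IFNα9 than with IFNα4. Keratinocyte markers rose in 3 of 5 with IFNα4, with Krt10 at 0.91. With IFNα9, Lor fell by 0.61 and the other 4 did not pass, with estimates from 0.19 to 0.56. Of these, 1 was higher at an unadjusted p under 0.05, and DESeq2 called 1.

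Within a type, the class I genes were compared with a leukocyte score, the mean log2 CPM of the 8 leukocyte markers. Over 27 relations, 9 genes in 3 types of 10 tumors each, 15 had an adjusted permutation p under 0.05. For B2m the relation was positive in each type. In GFP tumors Pearson's r was 0.89 (permutation test, adjusted p 0.00801) and Spearman's rho 0.84 (adjusted p 0.0249), and r was 0.78 without the 2 tumors farthest from the median score. In IFNα9 tumors r was 0.77 (permutation test, adjusted p 0.0214) and rho 0.83 (adjusted p 0.0255), with r = 0.83 without 2 tumors. In IFNα4 tumors r was 0.68 (permutation test, adjusted p 0.0501) and rho 0.61 (adjusted p 0.1), and r = 0.24 without 2 tumors, so that the relation there rested on those.

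The classical heavy chains followed the score in controls and did not pass the test in the interferon types. For H2-K1, r was 0.93 (permutation test, adjusted p 0.00801) and rho 0.87 (adjusted p 0.0224) in GFP tumors, with r = 0.83 without 2 tumors and 0.79 without tumor 7 (adjusted p 0.0448). It was 0.28 (adjusted p 0.469) with rho 0.22 (adjusted p 0.558) and 0.19 without 2 tumors in IFNα4 tumors, and 0.48 (adjusted p 0.191) with rho 0.52 (adjusted p 0.172) and 0.34 without 2 tumors in IFNα9 tumors. H2-D1 had r = 0.90 (permutation test, adjusted p 0.00873) and rho 0.87 (adjusted p 0.0224) in controls, with r = 0.75 without 2 tumors and 0.72 without tumor 7, where r no longer passed (adjusted p 0.0617), and r of 0.21 and 0.37 in the interferon types, whose adjusted permutation p was 0.577 and 0.326. Whether the relation differs between the types was not tested.

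Nlrc5 showed the opposite arrangement by the score, but not with Ptprc alone in its place. With Ptprc, r was 0.91 in controls (permutation test, adjusted p 0.0368) and 0.55 in IFNα4 tumors (adjusted p 0.169). By the score, r in controls was 0.72 (permutation test, adjusted p 0.0991) but rho 0.08 (adjusted p 0.838). That r was -0.32 without 2 tumors and -0.20 without tumor 7 alone, so that the value in controls rested on that tumor. In IFNα4 tumors r was 0.72 (permutation test, adjusted p 0.0338) and rho 0.79 (adjusted p 0.0295), with r = 0.82 without 2 tumors, and in IFNα9 tumors r was 0.84 (permutation test, adjusted p 0.00873) and rho 0.82 (adjusted p 0.0275), with r = 0.56 without 2 tumors. By Pearson's r, H2-M3 and H2-Q4 passed in each type, with r from 0.698 for H2-Q4 in IFNα4 tumors to 0.93 for H2-M3 in GFP tumors. By rho, H2-Q4 did not pass in IFNα9 tumors (permutation test, adjusted p 0.0829), nor H2-M3 in controls (adjusted p 0.0519). H2-Q7, H2-T22 and H2-T23 passed by r in controls, with r of 0.88, 0.77 and 0.85 and rho of 0.70, 0.85 and 0.81, and r was 0.58, 0.77 and 0.68 without 2 tumors. By rho, H2-Q7 did not pass in controls (permutation test, adjusted p 0.0543) and passed in IFNα9 tumors (rho 0.75, adjusted p 0.0413).

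Many of these calls rested on control tumor 7. Without it and with adjustment over all 27 again, 6 relations passed by r in place of 15: B2m, H2-K1 and H2-M3 in controls, and B2m, H2-M3 and Nlrc5 in IFNα9 tumors. In controls the values of H2-Q4, H2-Q7, H2-T22 and H2-T23 were then 0.69, 0.63, 0.71 and 0.56, with adjusted permutation p of 0.0674, 0.114, 0.0617 and 0.158. H2-Q4 then passed in neither interferon type (adjusted permutation p 0.0615 with IFNα4 and 0.0513 with IFNα9), and in IFNα4 tumors H2-M3 (0.0513) and Nlrc5 (0.0526) did not pass. By rho, 6 relations passed without that tumor, in place of 13, and they were in part other ones. H2-K1 (rho 0.82), H2-D1 (0.82) and H2-T22 (0.83) passed in controls, Nlrc5 in IFNα4 tumors (0.79), and B2m (0.83) and Nlrc5 (0.82) in IFNα9 tumors, each with an adjusted permutation p of 0.0485. B2m in controls did not pass by rho (0.78, adjusted permutation p 0.0517). The r of the interferon types is the same with and without that tumor, and their adjusted p moved through the joint adjustment.

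**Figure D5:**
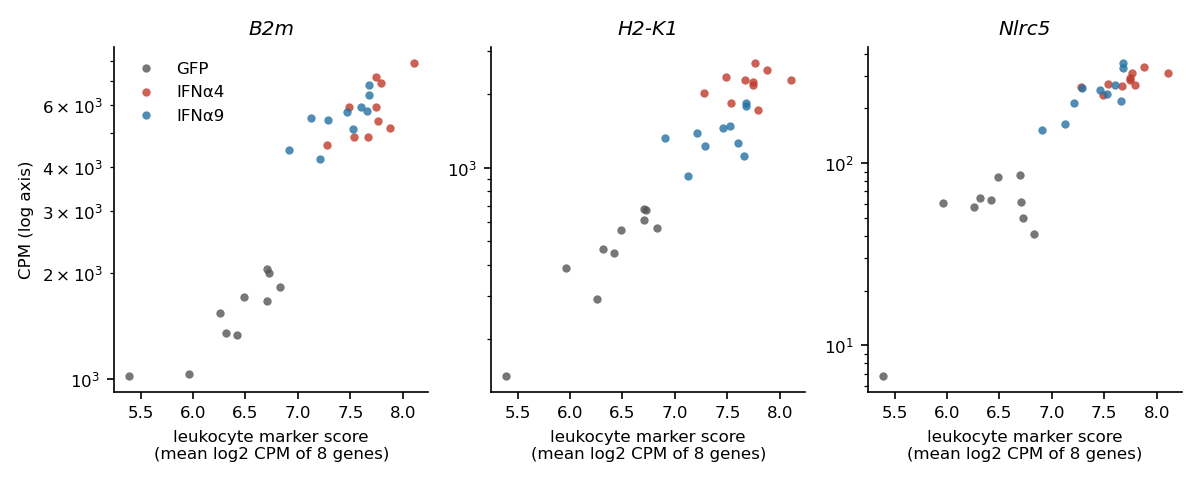
B2m, H2-K1 and Nlrc5 against the leukocyte score. The x axis is the mean log2 CPM of 8 leukocyte markers and the y axis the CPM of the gene on a log axis; each point is a tumor, colored by type. H2-K1 rises with the score among the GFP tumors (r = 0.93) and did not pass the test in the interferon types (r = 0.28 and 0.48), and the lowest Nlrc5 point, at 6.79 CPM, is GFP tumor 7.

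The 9 genes also varied together from tumor to tumor. After each type's mean was subtracted, Pearson's r of log2 CPM over the 30 tumors was 0.70 to 0.98 for the 21 pairs of heavy chains, with a median of 0.91. Nlrc5 followed the heavy chains at 0.53 to 0.89, with a median of 0.79, and B2m at 0.41 to 0.63, with a median of 0.55. Without GFP tumor 7 the medians were 0.82 for pairs of heavy chains, 0.50 for Nlrc5 (0.35 to 0.69) and 0.44 for B2m (0.20 to 0.55), so that the value of Nlrc5 rested in large part on that tumor. These values are descriptions over tumors that share libraries, depth and, between heavy chains, sequence. Among all other genes tested, those most like H2-K1 by this measure were H2-Q5 (r = 0.95), which shares stretches with several heavy chains, H2-DMb1 (0.94) and C4b (0.93), both of which also lie in the MHC. Those most like Nlrc5 were Psd4 (0.97), Tbc1d9 (0.95) and Ano9 (0.94). Without GFP tumor 7 these stood at 0.87, 0.82 and 0.78 and ranked 2, 14 and 28, and the genes most like H2-K1 stood at 0.89, 0.87 and 0.84 and ranked 3, 5 and 17. Those most like B2m were Srgn (0.86), Mndal (0.86) and Ms4a4d (0.86), which were also the first 3 without that tumor.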

How the data were processed

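The authors prepared stranded mRNA libraries from whole tumors, sequenced them single-end for 50 bases, checked the reads with FastQC 0.11.3 and aligned them with HISAT2 2.0.4 per the labels' processing notes, which name mm10, whereas the study's methods name mm11. Those methods name summarizeOverlaps as the counting tool. The deposited values are counts per gene, whole numbers without normalization; the annotation, the counting mode, the strand setting and the handling of reads with several alignments are not given in the sources used here. Of 39676 identifiers, 39495 were matched to a symbol in GENCODE M21 (GRCm38). Promoters are from RefSeq (GRCm38.p6). The 15926 genes that averaged 10 or more counts were kept, scaled by TMM and fitted with edgeR 4.0.16 (R 4.3.3) by quasi-likelihood over the 30 tumors, with DESeq2 1.42.0 among the alternatives. Ratios, shares and correlations were tested by permutation in scipy, with counting error as one part of the spread. The fit was also run on simulated counts, and the outcome of that run is not reported here. Adjusted p-values are Benjamini-Hochberg values. The labels do not say whether tumors came from separate animals beyond calling them biological replicates, so p-values measure the spread between these tumors.

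The 9 genes, the gene lists and the tests were chosen with earlier results of these data known. Beside the 9, the text names the gene with the largest rise and the largest fall with IFNα4 in each list, Tap1, Irf1, Rfx5, Ciita, Ifng and Ptprc, and the 3 genes most like B2m, H2-K1 and Nlrc5; other names were chosen after their values were seen, and 1 gene that the rule names is not reported here. Replicate numbers did not pair the tumors.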

Additional observations from a re-analysis of the deposited data

Results flagged for a closer look

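In 33 groups of 10 values (the 9 genes, the summed heavy chains and the share of H2-K1 and H2-D1, each in 3 types), 5 single tumors lay farther from the rest than Dixon's critical value of 0.466 allows, where chance gives about 1 in 20 groups. Of these 5, 4 were GFP tumor 7. Its log2 CPM was 2.79 for Nlrc5, against 5.35 to 6.42 in the other 9 controls, 4.39 for H2-Q4 against 5.60 to 6.75, 3.91 for H2-Q7 against 5.55 to 6.97, and 1.697 for H2-M3 against 2.84 to 3.83. This tumor was the lowest control for 8 of the 9 genes. The other value was that of IFNα4 tumor 3, whose H2-T23 level was 7.72 on the log2 CPM scale against 8.11 to 8.51 in the other 9 of its type.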

How the results depend on the processing

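The calls for the 9 genes kept their direction under DESeq2 size factors, library totals, DESeq2, other filters on low counts, fits of the 20 tumors compared and the omission of each tumor in turn. Each comparison with the controls gave 9 of 9 in all of these. Between the interferon types the count was 6, 7 in the fit of 20 tumors and without GFP tumor 7, and 5 at an adjusted p under 0.01. At the threshold of 0.05, H2-T23 was the one gene that changed its call. Same-numbered tumors did not deviate together, with a median correlation of -0.03, -0.10 and -0.01 in the 3 comparisons, and with the replicate number as a block the counts were 9, 9 and 6. Under the block the DEGs over all genes numbered 10249, 8626 and 2535, beside 10412, 8876 and 2833 without it, and 1, 1 and 0 of 10 tumors correlated best with their own number. DEGs between the interferon types numbered 4332 when the 20 tumors were fitted alone. Under library totals 5052 of 8660 DEGs rose with IFNα9, beside 4281 of 8876 with TMM. The summed heavy chains kept their calls in the 4 alternatives run for them: the 7 listed H2 genes alone, library totals, the sum with the sharing genes and the omission of GFP tumor 7. The 24 ratios to B2m were recomputed with a prior count of 0.5 and without GFP tumor 7, and 12 passed in each case. Without that tumor, H2-T23 with IFNα4 no longer passed (adjusted permutation p 0.0749) and H2-K1 with IFNα9 did (0.0354), the ratio of H2-D1 with IFNα4 turned to -0.069, that of H2-M3 to -0.047 and that of H2-T23 with IFNα9 to -0.014, none of which had passed before. The correlations with leukocyte markers changed more often: 15 of 27 passed, 6 without that tumor and 9 with Ptprc alone in place of the score. With Ptprc alone, r in IFNα4 tumors turned to -0.049 for H2-K1, -0.14 for H2-D1 and -0.25 for H2-T23. Without tumor 7, r turned to -0.20 for Nlrc5 in controls. Relations that passed by the score but not with Ptprc alone were H2-D1, H2-T22 and H2-T23 in controls (adjusted permutation p 0.0508, 0.169 and 0.0626). In the interferon types they were H2-Q4 and H2-M3 in both, and Nlrc5 in IFNα4 tumors. B2m in IFNα4 tumors (adjusted permutation p 0.0247) and Nlrc5 in controls (0.0368) passed in addition. The cause of these changes was not tested. Depth limits H2-M3 most, whose lowest count was 35 reads, in a control tumor.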

Other observations

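The class I-like genes here were named after their values were seen. Fcgrt, which encodes the heavy chain of the neonatal Fc receptor and also pairs with β2-microglobulin, fell by 1.30 on the log2 scale with IFNα4 and by 0.92 with IFNα9. H2-M9 fell by 1.40 and 2.10 at low counts, of 17 to 36 reads per control, 3 to 21 per IFNα4 tumor and 0 to 12 per IFNα9 tumor. Mr1, whose product presents microbial vitamin B metabolites to MAIT cells, was higher by 0.52 with IFNα9 (adjusted p of edgeR's test 3.5e-05), and its value with IFNα4, 0.18, did not pass. Cd1d1, which presents lipids to NKT cells, rose by 1.00 and 0.93. The tumor-to-tumor SD of the 9 genes was 23.6 to 43.4% of the mean in controls, 10.37 to 19.1% with IFNα4 and 14.4 to 30.4% with IFNα9. Without GFP tumor 7 it was 20.7 to 32.1% in controls, above the IFNα4 value for 9 of 9 genes and above the IFNα9 value for 7, with Nlrc5 (23.01 against 26.5%) and H2-T23 (28.1 against 30.4%) below it. IFNα9 tumor 8 was the highest of its type for 8 of the 9 genes, and tumor 10 the lowest for 6.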
